A study of Homo sapiens with 6 samples.

Results

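The apolipoprotein L genes APOL1, APOL2, APOL3, APOL4 and APOL6 were followed on 6 Affymetrix HG-U133 Plus 2.0 arrays of 2 human lymphoma cell lines. The members were taken by gene symbol: each probe set, a group of short probes read out together as 1 value, that the platform annotation assigned to 1 of these 5 genes and to no other gene was used, which gave 5 of 19775 genes and 11 of 41091 single-gene probe sets. APOL1 and APOL3 had 1 probe set each, APOL2 had 2, APOL4 had 3 and APOL6 had 4. The family was picked from genes whose signal differed between hairpins on these same arrays, so its values below describe these arrays and carry no p-value.

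KARPAS-422 and Pfeiffer are established lines grown from diffuse large B-cell lymphomas, which arise from mature B cells. In each line a lentivirus delivered the hairpin that silences EZH2 (shEZH2) or a hairpin with no target (shNTC), and knockdown ran for 10 days. EZH2 is the methyltransferase of Polycomb repressive complex 2, which represses genes through methylation of histone H3. The 4 groups were KARPAS-422 shNTC and KARPAS-422 shEZH2 with 2 arrays each, labelled as biological replicates, and Pfeiffer shNTC and Pfeiffer shEZH2 with 1 array each. All groups had gone through polybrene at 8 µg/ml and puromycin at 1 µg/ml, controls included, and no uninfected group was used here. A single hairpin stood for the knockdown in both lines. The labels do not say whether the KARPAS-422 replicates came from separate infections, and p-values here reflect nothing beyond the array-to-array spread.

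The 2 hairpin oligos are shown because they are the only labelled difference between the arms of a line. Both are given 5′ to 3′ with the sense strand of the stem, 21 bases, in capitals, as read from the labels.
shControl: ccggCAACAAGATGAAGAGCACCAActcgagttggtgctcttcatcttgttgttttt
shEZH2: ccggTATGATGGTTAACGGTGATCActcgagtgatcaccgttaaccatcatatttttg

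Apolipoprotein L proteins bind lipids and act on membranes. APOL1 is the secreted member: it travels on high-density lipoprotein in blood and kills trypanosomes by making pores in their membranes. The other members stay inside the cell, and several genes of the family are known to be induced by interferons and by tumour necrosis factor. The genes lie together on chromosome 22.

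The arrays were scaled alike, and the knockdown was seen in both lines. On the linear scale each array had a 2% trimmed mean of 500, so the signals were already scaled to a common target. EZH2 fell in KARPAS-422 by 1.11 on the log2 scale (SE 0.10, limma adjusted p = 7.73e-04, n = 2 per arm) and read 10.24 against 11.65 in Pfeiffer. The 3′ minus 5′ signal of the ACTB control probe sets in KARPAS-422 was 0.0593 and 0.0830 with shNTC against 0.138 and 0.175 with shEZH2. In Pfeiffer it was 0.109 with shNTC and 0.126 with shEZH2. For GAPDH it was -0.18 and -0.16 against -0.17 and -0.24 in KARPAS-422, and -0.15 against -0.10 in Pfeiffer. The part of RNA quality in the differences below was not tested. All 6 B cell marker genes with a single-gene probe set (MS4A1, CD79A, CD79B, PAX5, CD22 and BCL6) exceeded 6.21, the median of all values in the table, on every array. That median is used below as a mark for dim signal, since detection calls were not analysed here.

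APOL1, APOL3 and 3 of the 4 APOL6 probe sets read at least 2.8 log2 units higher with shEZH2 in KARPAS-422, APOL2 gave discordant probe sets, and APOL4 stayed dim in every group. In Pfeiffer the APOL3 probe set was the only family member that differed by 1 log2 unit or more. All values are log2 MAS5 signals, and each difference is the shEZH2 value less the shNTC value in log2 units. The SE of a KARPAS-422 difference comes from limma fitted over all 54613 probe sets that are not Affymetrix controls, without a filter.

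APOL1, the secreted trypanosome-killing member, was read by 209546_s_at. In KARPAS-422 it read 3.86 and 4.17 with shNTC and 7.001 and 6.71 with shEZH2. Both knockdown arrays lay above both control arrays, with a difference of 2.84 (SE 0.42, n = 2 per arm). The SD within an arm was 0.216 for shNTC and 0.207 for shEZH2, far below that difference. Its size depended on the low control signal, and it was 1.94 with 19 added to the linear values and 1.06 with 76 added. In Pfeiffer the probe set read 5.51 with shNTC and 6.12 with shEZH2, a difference of 0.61 with no replicate check. The Pfeiffer control thus read 1.498 above the mean of the KARPAS-422 controls.

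APOL3 is a cytosolic member that can dissolve bacterial membranes in cells exposed to interferon gamma. Its only probe set, 221087_s_at, gave 2.79 and 1.73 with shNTC and 6.70 and 6.49 with shEZH2 in KARPAS-422. The arms did not overlap and differed by 4.34 (SE 0.64, n = 2 per arm). In Pfeiffer the same probe set gave 2.62 with shNTC and 5.78 with shEZH2, a difference of 3.16. Of the 11 probe sets, 1 was higher by at least 1 log2 unit in Pfeiffer, against 11.1% of all probe sets, and 0 were lower by that much, against 7.84% (Pfeiffer was not tested). Between the 2 shNTC replicates of KARPAS-422, 19% of all probe sets differed by at least 1 log2 unit in either direction, and between the Pfeiffer arms 18.9% did. The control signals of APOL3 were near the lower end of the scale, at 6.91 and 3.32 linear units in KARPAS-422 and 6.15 in Pfeiffer, so the size of its differences is uncertain. Adding 19 to the linear signals made the difference 2.27 in KARPAS-422 and 1.56 in Pfeiffer, and adding 76 made it 1.09 and 0.67.

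APOL6, an intracellular member with a BH3-like motif that can trigger mitochondrial cell death when overproduced, had 4 probe sets, and they did not give 1 picture. The largest KARPAS-422 difference of the family was on 241869_at, with 2.61 and 2.36 for shNTC and 7.30 and 7.25 for shEZH2. The difference was 4.79 (SE 0.50, n = 2 per arm), and 2.82 with 19 added to each linear value. The probe set 1557236_at went from 1.30 and 2.75 to 5.23 and 5.75, a difference of 3.47 (SE 0.75) that shrank to 1.45 with 19 added. Its 4 KARPAS-422 values and both Pfeiffer values lay below the median of all values. The probe set 219716_at went from 4.92 and 3.11 to 7.13 and 6.77, a difference of 2.94 (SE 0.68) that was 1.95 with 19 added.

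The remaining APOL6 probe set, 1557116_at, had the highest mean of the 4 and the smallest KARPAS-422 difference. It gave 6.47 and 6.89 with shNTC and 7.21 and 7.18 with shEZH2, a difference of 0.52 (SE 0.28). The shEZH2 arrays again lay above the shNTC arrays, but by little more than the spread between the controls. A gene table that keeps the brightest probe set of each gene therefore represents APOL6 by the probe set with the smallest KARPAS-422 difference. In Pfeiffer 3 of the 4 APOL6 probe sets read lower with shEZH2: 1557116_at at 5.96 against 6.76, 1557236_at at 3.43 against 4.36, and 241869_at at 4.60 against 5.12. The probe set 219716_at read 5.43 with shEZH2 against 4.80 with shNTC. No APOL6 probe set moved by 1 log2 unit in Pfeiffer as deposited, and after quantile normalization, median centring or cyclic loess the 1557236_at difference was between -1.07 and -1.05.

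**Figure D1:**
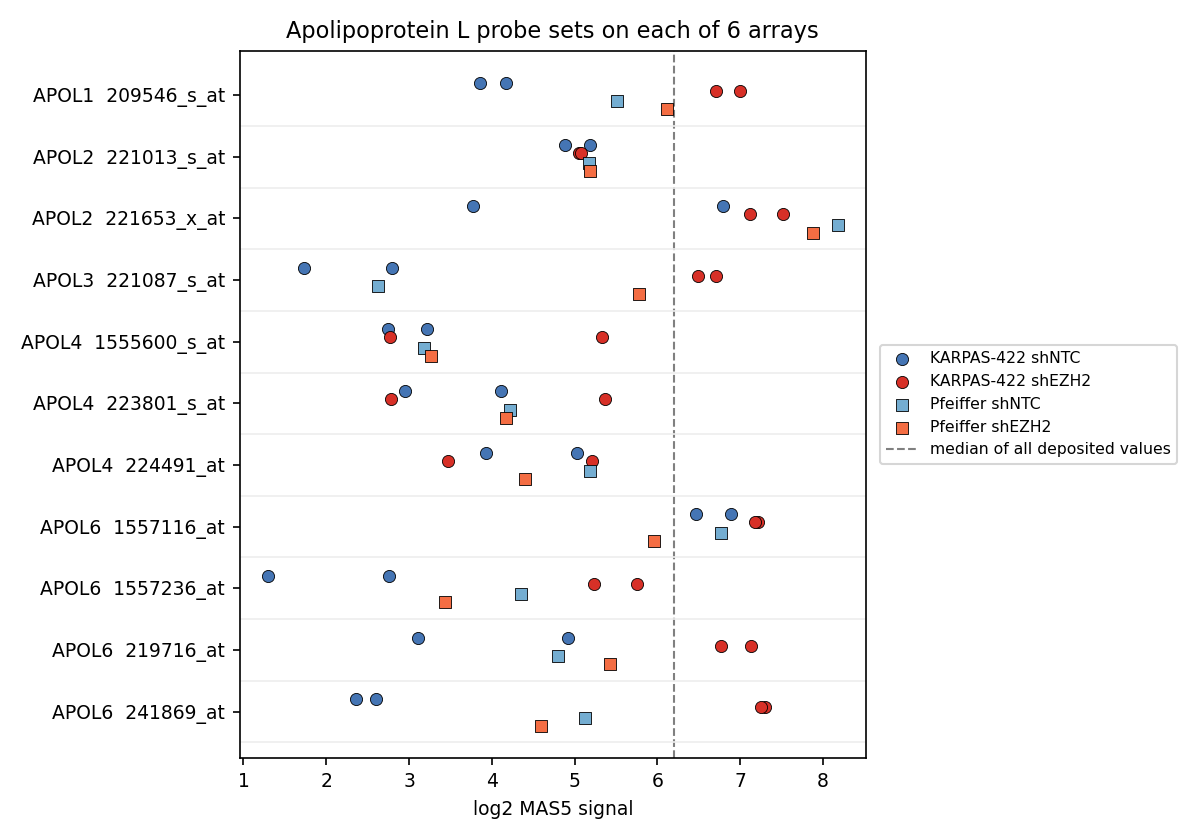
Log2 MAS5 signal of the 11 apolipoprotein L probe sets (rows) on each of the 6 arrays, with KARPAS-422 as circles, Pfeiffer as squares, shNTC in blue and shEZH2 in red or orange. The dashed line marks 6.21, the median of all deposited values; the KARPAS-422 shEZH2 circles stand apart to the right for APOL1, APOL3 and 3 of the 4 APOL6 probe sets and mix with the shNTC circles for APOL4.

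APOL2, an intracellular member found at the endoplasmic reticulum, was read by 2 probe sets that disagreed. The probe set 221013_s_at gave 4.89 and 5.18 with shNTC and 5.06 and 5.08 with shEZH2 in KARPAS-422. The arms overlapped, and the difference was 0.03 (SE 0.47, n = 2 per arm), which turned below 0 under 1 of 3 other scalings. In Pfeiffer it gave 5.17 with shNTC and 5.19 with shEZH2, a difference that was between -0.12 and -0.10 under those 3 scalings. The probe set 221653_x_at gave 3.78 and 6.79 with shNTC and 7.52 and 7.12 with shEZH2. Its difference was 2.03 (SE 0.90), and it rested on the low value of shNTC replicate 1: without that array the difference was 0.53, and without shNTC replicate 2 it was 3.54. In Pfeiffer this probe set read 8.18 with shNTC and 7.88 with shEZH2, both above its 4 KARPAS-422 values. An _x_at name marks probes that can also bind other transcripts, and the family members resemble each other in sequence, so this signal may not be APOL2 alone. The only probe sets of APOL1 and APOL3 have _s_at names, and their binding to other members was not tested.

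APOL4 showed no separation of the arms on any of its 3 probe sets. On 1555600_s_at the KARPAS-422 signal was 2.74 and 3.21 with shNTC and 2.77 and 5.34 with shEZH2, a difference of 1.08 (SE 0.97, n = 2 per arm) carried by replicate 2. On 223801_s_at it was 4.11 and 2.95 with shNTC and 5.37 and 2.79 with shEZH2, a difference of 0.55 (SE 1.00) carried by replicate 1. On 224491_at it was 3.93 and 5.03 with shNTC and 5.22 and 3.47 with shEZH2, a difference of -0.14 (SE 0.80). The knockdown array that read high was thus not the same on the 3 probe sets, and each of these differences changed sign when single arrays were left out, with ranges of -0.21 to 2.36, -0.74 to 1.84 and -1.01 to 0.73. In Pfeiffer they differed by 0.10, -0.05 and -0.79, the first of which turned below 0 under the other 3 scalings. All APOL4 values were below the median of all values, so no statement on a change of APOL4 can be made at this signal.

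Across the family, the KARPAS-422 shEZH2 arrays lay above both shNTC arrays on 7 of 11 probe sets and overlapped them on 4, against 27.4% of all probe sets with shEZH2 above and 26.2% with shEZH2 below. In limma over all probe sets, 4 of 11 were called higher and 0 lower at an adjusted p of 0.05, where 4.81% of all probe sets were called higher and 2.83% lower. At an unadjusted limma p under 0.05, 5 of 11 were higher, and the share of all probe sets at that threshold was not kept. The 4 called were 209546_s_at (APOL1), 221087_s_at (APOL3), and 1557236_at and 241869_at (APOL6). As the members were chosen with this contrast known, nothing is read from these counts. Without shNTC replicate 1 the count was 3 and without shNTC replicate 2 also 3, and it was 0 without either shEZH2 replicate or without an intensity trend in limma. A filter of at least 2 arrays above the median kept 6 probe sets, of which those of APOL1, APOL3, and 219716_at and 241869_at of APOL6 passed through the KARPAS-422 shEZH2 arrays alone. The other 5 probe sets never reached the median on any array.

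The difference between the lines is described for the family without adjusted calls. In limma over all probe sets, 4 of 11 had a higher difference in KARPAS-422 than in Pfeiffer at an unadjusted p under 0.05. Nothing is read from this count. The share of all probe sets at that threshold was not kept. Of the 13036 genes that passed the filter, 2277 had an unadjusted limma p under 0.05 for the difference between lines, in either direction. Adjusted calls of the single family probe sets were not kept for this comparison, so no count of them is given. Of all probe sets, 0.15% were called higher in KARPAS-422 at an adjusted p under 0.05. In Pfeiffer 5 probe sets read higher and 6 lower with shEZH2 as deposited, and under quantile normalization, median centring or cyclic loess 221013_s_at of APOL2 and 1555600_s_at of APOL4 moved to the lower side. The KARPAS-422 difference exceeded the Pfeiffer difference by 5.32 (SE 0.87) on 241869_at of APOL6, by 4.40 (SE 1.30) on 1557236_at of APOL6, by 2.23 (SE 0.72) for APOL1 and by 1.18 (SE 1.10) for APOL3. These estimates take the spread of the lone Pfeiffer arrays to be that of KARPAS-422. Among all genes of the filtered table, 1.7% were called for a difference between the lines.

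**Figure D2:**
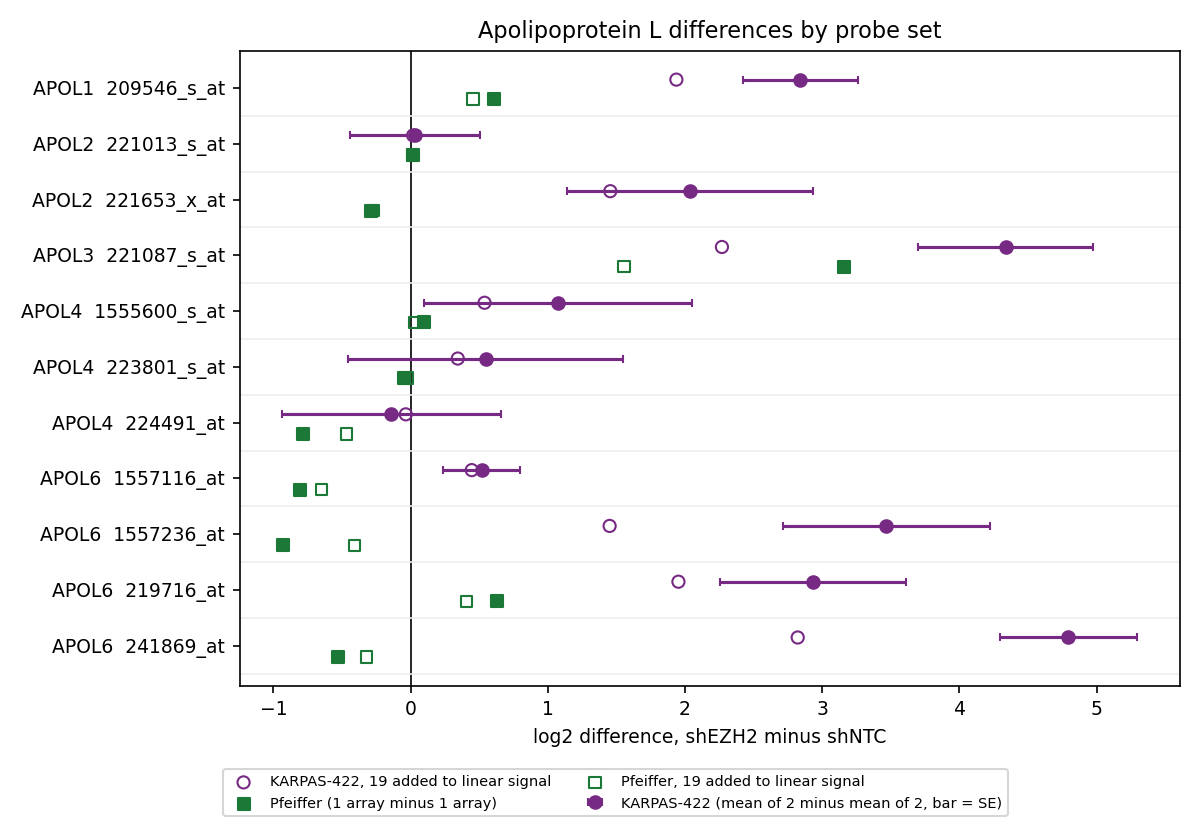
Difference in log2 signal, shEZH2 minus shNTC, for the 11 apolipoprotein L probe sets in KARPAS-422 (filled circles with SE, 2 arrays per arm) and Pfeiffer (filled squares, 1 array per arm). Open symbols show the same differences with 19 added to each linear value, which lowers the APOL3 difference from 4.34 to 2.27 in KARPAS-422 and from 3.16 to 1.56 in Pfeiffer.

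Genes of similar profile were sought with no regard to function. For each member in the filtered table of 13036 genes, the 3 genes outside the family with the smallest root mean square difference between log2 profiles over the 6 arrays, each profile centred on its own mean, were taken. For APOL1 they were SIDT1, a member of the SID1 transmembrane family, at 0.222, the linker histone gene H1-2 at 0.287, and HCP5, a long noncoding RNA gene of the HLA region, at 0.300. For APOL3 they were PTPRN2 at 0.525, ABAT, the enzyme that breaks down the transmitter GABA, at 0.619, and MED14OS at 0.622. All 6 read higher with shEZH2 in both lines: SIDT1 by 2.86 in KARPAS-422 and 1.07 in Pfeiffer, HCP5 by 3.47 and 0.93, PTPRN2 by 4.22 and 1.71, and ABAT by 3.99 and 1.87. As they were picked for profiles like those of APOL1 and APOL3, this shared direction follows from the choice.

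The profiles nearest to APOL2 and APOL6 differed from these. For APOL2 (221653_x_at) they were DYRK3 at 0.402, TMEM121 at 0.419 and GLCE at 0.451, genes that also read lowest on shNTC replicate 1 of KARPAS-422. TMEM121 gave 1.94 on that array and 5.41 on the other shNTC array, and GLCE gave 2.10 and 5.31. For APOL6 (1557116_at) they were GNG7 at 0.0928, DOK1 at 0.148 and ZCCHC2 at 0.167, which read lower with shEZH2 in Pfeiffer by 0.84, 0.41 and 0.42. Within the family, with 1 probe set per gene and APOL6 represented by 1557116_at, the profile nearest to APOL1 was that of APOL3, at 1.07. That was farther than any of the 3 genes named for APOL1 or for APOL3. The other APOL6 probe sets, which had larger KARPAS-422 differences, were not compared, so a nearer family profile among them is possible. What the named genes share with APOL2 or APOL6 likewise follows from how they were picked. These likenesses rest on 6 arrays of 2 lines and describe them only.

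Among protein-coding genes beside the family on chromosome 22, some changed in KARPAS-422 and the next gene on the APOL1 side did not pass. In RefSeq order (GRCh38.p14), APOL6 is followed by APOL5 and RBFOX2, then by APOL3, APOL4, APOL2 and APOL1, and then by MYH9. RBFOX2, a splicing factor gene that stands between APOL5 and APOL3, rose by 1.40 in KARPAS-422 (SE 0.20, limma adjusted p = 0.00367, n = 2 per arm) from 7.85 and 7.88 to 9.42 and 9.11. The call was lost without shEZH2 replicate 1 (1.24, limma adjusted p = 0.0536), and the other 3 RBFOX2 probe sets gave 1.08, 0.88 and 0.23. In Pfeiffer RBFOX2 read 6.72 against 7.05, and the difference between lines was 1.73 (limma adjusted p = 0.0593). MYH9, which encodes the heavy chain of nonmuscle myosin IIA, differed by 0.04 in KARPAS-422 (SE 0.16, limma adjusted p = 0.892). MB, the myoglobin gene and the next gene on the APOL6 side, was not in the filtered table and read 4.52 and 4.28 with shNTC and 5.02 and 5.47 with shEZH2 in KARPAS-422. APOL5, the sixth gene of the family and not a member here, read between 2.48 and 3.25 on its only probe set over all arrays.

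Farther out, HMOX1, the heme oxygenase gene, rose by 1.36 (SE 0.17, limma adjusted p = 0.00269) from 6.94 and 6.67 to 8.27 and 8.07. CSF2RB, the shared receptor subunit of several cytokines, rose by 1.30 (SE 0.18, limma adjusted p = 0.00334), a call lost without shEZH2 replicate 1 (1.20, limma adjusted p = 0.0529). RAC2, a small GTPase of blood cells, rose by 0.31 (SE 0.09, limma adjusted p = 0.0385), which did not pass without any of the 4 KARPAS-422 arrays. The replication helicase gene MCM5 fell by 0.72 (SE 0.09, limma adjusted p = 0.00227), and the translation factor gene EIF3D fell by 0.39 (SE 0.07, limma adjusted p = 0.00920). Neither passed without the intensity trend (limma adjusted p = 0.0575 and 0.0997). The EIF3D call was lost without shNTC replicate 1, shEZH2 replicate 1 or shEZH2 replicate 2, at limma adjusted p of 0.0531, 0.0545 and 0.0605, and after cyclic loess (-0.17, limma adjusted p = 0.0931). Of 26 listed neighbours 19 passed the filter, of which 4 rose and 2 fell, where 25.4% of all genes were called either way and 13.1% rose, and their median difference was 0.08 beside -0.02 for all genes. Without shEZH2 replicate 1 only 2 were called.

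**Figure D3:**
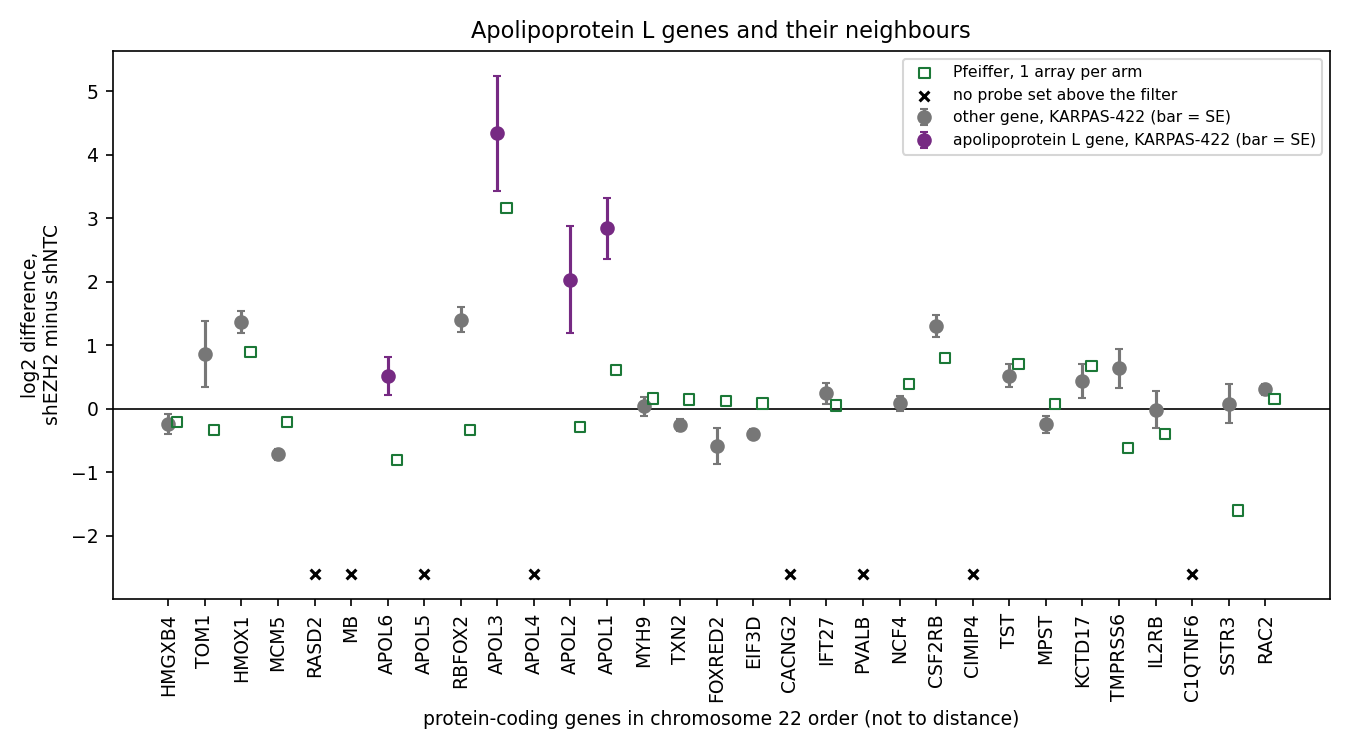
Log2 difference, shEZH2 minus shNTC, of protein-coding genes in their order on chromosome 22, with KARPAS-422 as circles (bar = SE from the filtered gene table, 2 arrays per arm), Pfeiffer as open squares (1 array per arm), and crosses for genes with no probe set above the filter. APOL3, APOL2 and APOL1 stand above MYH9, at 0.04 in KARPAS-422, and RBFOX2, at 1.40, lies between APOL6 and APOL3.

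Genes of interferon and tumour necrosis factor signalling, the known inducers of the family, were described from a list of 24, of which 21 were in the filtered table. In KARPAS-422, 9 of 21 rose and 0 fell in limma, where 13.1% of all genes rose. The list's median difference was 0.56 beside -0.02 for all genes. The 9 did not include TNF, TNFRSF1A, TNFRSF1B, NFKB1 or RELA, the genes on the tumour necrosis factor side. At an unadjusted limma p under 0.05, 2 genes were lower: TNF with a difference of -0.32 and IRF3 with -0.38. IFNB1, 1 of the 9, passed the filter through the KARPAS-422 shEZH2 arrays alone, so its place among them was fixed by the filter. The interferon beta gene IFNB1 was 1.92 and 3.61 with shNTC and 8.97 and 9.65 with shEZH2, a difference of 6.54 (SE 0.81), given as a description. The transcription factor genes IRF1 and IRF7 rose by 1.85 (SE 0.22, limma adjusted p = 0.00236) and 1.76 (SE 0.11, limma adjusted p = 1.45e-04), and IRF2 by 0.96 (SE 0.16, limma adjusted p = 0.00670). The IRF2 call was lost without shEZH2 replicate 2 and without the intensity trend (limma adjusted p = 0.0587 without the trend). In Pfeiffer 0 of 21 differed by 1 log2 unit in either direction, where 3.23% of all genes were higher and 1.48% lower by that much. The list's median difference in Pfeiffer was 0.17 beside 0.03 for all genes. IFNB1 read 2.35 with shEZH2 against 2.93 with shNTC there, both below the median of all values. How the APOL3 difference of 3.16 in Pfeiffer relates to these genes was not tested. IRF7 differed between the lines by 1.03 (limma adjusted p = 0.0470) and STAT3, a transcription factor of cytokine signalling, by 1.14 (limma adjusted p = 0.0174). STAT3 read 0.82 higher with shEZH2 in KARPAS-422 and 13.11 against 13.44 in Pfeiffer.

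Guanylate-binding proteins are interferon-induced GTPases that coat bacteria in the cytosol, where GBP1 acts before APOL3. Of 7 listed, GBP1 and GBP3 were in the filtered table, and both passed the filter through the KARPAS-422 shEZH2 arrays alone. They had to read higher there, so their differences are a description: 3.01 for GBP3 (SE 0.59) and 2.86 for GBP1 (SE 0.49). The 4 GBP1 probe sets differed by 5.44, 3.92, 2.86 and -0.23. In Pfeiffer those 4 probe sets differed by 2.30, -2.65, 1.12 and 0.72, and GBP3 by 0.81, all from signals below the median of all values. The probe sets of GBP2, GBP4, GBP5 and GBP6 stayed below the median of all values on every array, with a highest signal of 5.82.

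Among other apolipoprotein and lipoprotein genes, ABCA1 rose and SCARB1 and APOO fell in KARPAS-422. Of 26 listed, 13 were in the filtered table, and these 3 were called, where 25.4% of all genes were called either way. The list's median difference was -0.16 beside -0.02 for all genes. ABCA1, the exporter that loads cholesterol onto apolipoprotein A-I, rose by 2.50 (SE 0.17, limma adjusted p = 2.19e-04) from 8.19 and 7.81 to 10.49 and 10.52, and in Pfeiffer it read 7.91 against 9.42. SCARB1, the receptor for high-density lipoprotein, fell by 0.48 (SE 0.12, limma adjusted p = 0.0231), and APOO, a protein of the mitochondrial inner membrane, fell by 0.54 (SE 0.11, limma adjusted p = 0.0115). Both decreases were lost without either shEZH2 replicate, and the SCARB1 decrease also without shNTC replicate 2 or with the mean of its probe sets (-0.37, limma adjusted p = 0.113). Without the intensity trend neither SCARB1 nor APOO passed (limma adjusted p = 0.0975 and 0.0827). The proteins that travel with APOL1 in the trypanosome-killing particle, encoded by APOA1 and HPR, gave at most 6.45 and 5.66 on any array.

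Of 14 genes for reported partners and pathways of the family's proteins, 13 passed the filter, and 1 rose and 1 fell in KARPAS-422, where 25.4% of all genes were called either way. The mitochondrial prohibitin gene PHB2 fell by 0.52 (SE 0.08, limma adjusted p = 0.00456). Its difference was -0.24 after cyclic loess (limma adjusted p = 0.0326), and the call was lost without the intensity trend (limma adjusted p = 0.0801). BCL2, the apoptosis inhibitor, rose by 0.80 on its brightest probe set (SE 0.19, limma adjusted p = 0.0219). It read 0.31 lower without _x_at and _s_at probe sets, and 0.25 higher with the mean of its probe sets (limma adjusted p = 0.377). The BCL2 call was also lost after quantile normalization or cyclic loess and without the intensity trend. Leaving out shNTC replicate 2 or either shEZH2 replicate lost it too. MYH9 belongs to this list too and was described above. In Pfeiffer 0 of 13 differed by 1 log2 unit, where 3.23% of all genes were higher and 1.48% lower by that much.

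**Figure D4:**
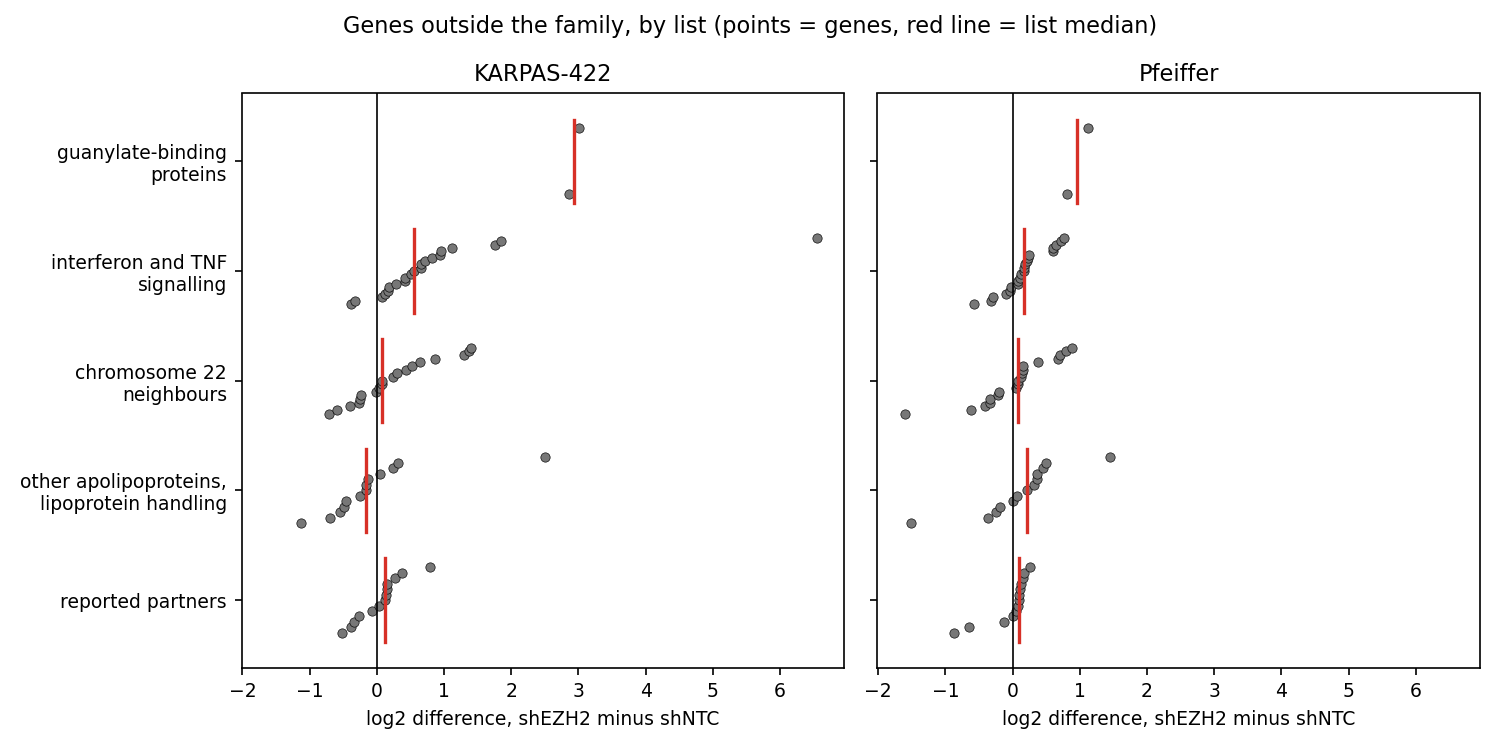
Log2 difference, shEZH2 minus shNTC, of genes outside the apolipoprotein L family by list, in KARPAS-422 (left, 2 arrays per arm) and Pfeiffer (right, 1 array per arm), where each point is a gene of the filtered table and the red line is the list's median. GBP1 and GBP3 lie near 3 in KARPAS-422, IFNB1 is the point at 6.54, and ABCA1 is the point at 2.50 among lipoprotein genes.

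Markers of other cell types were read because endothelial cells, liver and kidney also express apolipoprotein L genes. Of 7 endothelial markers, only PECAM1, a protein that leukocytes also make, was in the filtered table. It was called 2.97 higher in KARPAS-422 (SE 0.26, limma adjusted p = 6.73e-04), where 13.1% of all genes rose. In limma over all probe sets it was the only 1 of the 7 called, where 4.81% of all probe sets were called higher. Sums of linear signal below are of the KARPAS-422 arrays unless Pfeiffer is named. That of the endothelial list was 341 and 368 with shNTC and 1440 and 1031 with shEZH2, while CDH5, ESAM and KDR lay below the median of all values on every array. The liver and kidney list summed to 294 and 383 with shNTC and 169 and 183 with shEZH2, with ALB, TTR and NPHS1 below the median on every array and PODXL called lower. The T and NK cell list summed to 6409 and 6999 with shNTC and 4406 and 3997 with shEZH2. In Pfeiffer it summed to 11748 with shNTC and 12681 with shEZH2. CD2, GNLY, KLRD1 and NKG7 lay below the median on every array, while CD8A read 13.49 and 13.60 in Pfeiffer and 5.40 to 6.30 in KARPAS-422. CD3D and CD3G were called lower in KARPAS-422 in the gene table, where 25.4% of all genes were called either way. Their differences were -0.77 and -0.64 (limma adjusted p = 0.00943 and 0.0417). The myeloid list summed to 267 and 220 against 139 and 199, and the fibroblast and epithelial list to 13946 and 12978 against 12987 and 11554. Of the latter list, DCN read 13.43 to 13.71 in KARPAS-422, and EPCAM read 13.33 with shNTC and 12.98 with shEZH2 in Pfeiffer. In bulk samples a change in RNA per cell and a change in the share of cells that express a gene cannot be told apart.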

How the data were processed

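The deposited table holds log2 values that the authors obtained with MAS5, for which the submitters' processing notes give no version. MAS5 works on 1 array at a time. No source used here names the log base. Read as log2, the linear signals had a 2% trimmed mean of 500 on all 6 arrays. No detection call or scan date entered the analysis.

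The gene table excluded 1801 probe sets with several gene symbols, 11721 with none and 62 Affymetrix controls out of 54675. To pass the filter, a probe set needed at least 2 of 6 arrays above 6.21, and the brightest one stood for each of 13036 genes. Tests used limma 3.58.1 in R 4.3.3 (means of 4 groups over all 6 arrays, intensity trend, two-sided, Benjamini-Hochberg over all features, threshold 0.05). The number of arrays limits the precision: limma had 2 residual and 5.24 prior degrees of freedom. The Pfeiffer arms, with 1 array each, had no test of their own.

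Members and lists were chosen with earlier results of these data known. Of each list up to 4 called genes per direction with the largest KARPAS-422 difference are named, or the 2 with the smallest p where none was called, with the genes next to the family on chromosome 22, and for each member above the filter the 3 genes of nearest profile, passing over clone-type names and immunoglobulin segments. Marker genes of other cell types, STAT3, IRF3, TNF, TNFRSF1A, TNFRSF1B, NFKB1, RELA, APOA1, HPR, GBP2, GBP4, GBP5 and GBP6 were named after their values were seen. Alternatives were other scalings, 19 or 76 added to linear values (near the lower quartile, 18.8, and the median, 73.8), no filter, other probe set choices, no trend, KARPAS-422 alone, a replicate block and leaving out arrays. The scripts were tested on simulated data.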

Additional observations from a re-analysis of the deposited data

Results flagged for a closer look

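In all, 4 family probe sets read higher with shEZH2 on both KARPAS-422 replicates and lower in Pfeiffer. The KARPAS-422 minus Pfeiffer difference was 5.32 on 241869_at and 4.40 on 1557236_at of APOL6, 1.32 on 1557116_at of APOL6, and 2.33 on 221653_x_at of APOL2. The last of these was 0.82 without KARPAS-422 shNTC replicate 1 and 3.83 without shNTC replicate 2. These differences were not tested, since the family was chosen with its values known, and the Pfeiffer arms had 1 array each.

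ABCA1, STAT3 and IRF7 differed between the lines by the interaction in limma. ABCA1 rose in KARPAS-422 and read lower in Pfeiffer. The Pfeiffer difference was -1.51 on 203505_at and -1.06 on 203504_s_at, while it was -0.16 and 0.80 on the dim probe sets 1570279_at and 216066_at. The ABCA1 difference between the lines was 4.01 (limma adjusted p = 0.00393). That call was lost without either KARPAS-422 shEZH2 replicate (limma adjusted p = 0.116 and 0.101) and without the intensity trend (limma adjusted p = 0.102). STAT3 rose in KARPAS-422 and read lower in Pfeiffer, a difference of 1.14 (limma adjusted p = 0.0174), which was lost without either shEZH2 replicate (limma adjusted p = 0.126 and 0.128) and without the trend (limma adjusted p = 0.175). IRF7 differed by 1.03 (limma adjusted p = 0.0470), and this was lost without either shEZH2 replicate (limma adjusted p = 0.231 and 0.196), after cyclic loess (limma adjusted p = 0.0561), without a filter (limma adjusted p = 0.0764) and without the trend (limma adjusted p = 0.203).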

How the results depend on the processing

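No family probe set called in KARPAS-422 changed sign under any alternative run. Without the intensity trend limma called 720 genes in KARPAS-422 in place of 3305 (586 higher and 134 lower), 1 gene for the difference between lines in place of 222, 3 neighbours in place of 6, and 0 of 11 family probe sets in place of 4 (5 at an unadjusted p under 0.05). With single arrays left out, the genes called in KARPAS-422 ranged from 963 to 2762 (539 to 1649 higher, 418 to 1113 lower), the difference between lines from 0 to 473, neighbours from 2 to 5 and family probe sets from 0 to 3. The lowest values came without a shEZH2 array, when 1914 and 1771 genes still had an unadjusted p under 0.05 for the difference between lines, as did 6 and 5 family probe sets in KARPAS-422. Genes past 1 log2 unit in Pfeiffer numbered 614 as deposited, 368 with 19 added, 119 with 76 added and 3041 without a filter. Without a filter 114 genes were called for the difference between lines, and without _x_at and _s_at probe sets, which leaves APOL1, APOL2 and APOL3 with none, 901 genes were lower in KARPAS-422. Without those probe sets the BCL2 difference in KARPAS-422 was -0.31. Same-numbered KARPAS-422 arrays share only a number: their deviations correlated at 0.00651 over genes. With the replicate block 3626 genes and 5 family probe sets were called in KARPAS-422, and 378 genes for the difference between lines. Low signal limits APOL4 and the shNTC values of APOL1, of APOL3 and of 3 of the 4 APOL6 probe sets, 1557116_at being the exception. The causes of these shifts were not tested.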
